A study of Mus musculus with 46 samples.

Results

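The 10 genes described here belong to the interleukin-1 and interleukin-6 systems and were read in bulk RNA of the MC-38 mouse colon carcinoma. They are the IL-1 family ligands Il1a, Il1b and Il33, the IL-1 receptor antagonist Il1rn, the receptors Il1r1 and Il1r2, the cytokine Il6, and the inflammasome genes Nlrp3, Casp1 and Gsdmd. They were chosen by name, and all 10 were found among the 48795 genes of the expression table, whose values are FPKM (fragments per kilobase, scaled to the mapped total). The study asked how tumors change when PD-1, an inhibitory receptor of T cells, is blocked with an antibody or deleted in the adult mouse. The 46 samples were 3 cultures of MC-38 cells and 43 tumors from female C57BL/6NTac-background mice, 8 to 10 weeks old.

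The antibody groups were wild-type mice. They comprised 3 baseline tumors, whose treatment and day are not given in the labels. Another 5 tumors were given isotype control and 5 were given PD-1 Ab for 4 days (1 dose). A further 5 and 5 such tumors were treated for 8 days (2 doses). The PD-1 Ab was muDX400 at 5 mg/kg, and the dose of the isotype control is not given in the sources used here. The PD-1cKO group was 10 tumors from mice with a tamoxifen-inducible Cre in the ubiquitously active Rosa26 locus and loxP sites around exons 2 and 3 of Pdcd1, so that deletion was not restricted to T cells. Its control was 10 tumors from WT littermates, and mice of both groups received tamoxifen at 40 mg/kg on 5 days. The labels place these tumors at 28 days, whereas the study's methods give day 22. Nothing states whether the 3 cultures were independent of each other, so the spread between them may be technical.

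IL-1 alpha and IL-1 beta act through the same signaling receptor, encoded by Il1r1, which recruits MyD88 and IRAK kinases and activates NF-kB. Il1rn encodes a ligand that occupies this receptor without signaling, and Il1r2 encodes a decoy receptor. IL-1 beta is made as an inactive precursor that caspase-1 cleaves once it is activated in an inflammasome such as the one built on NLRP3, and gasdermin D forms the membrane pores through which mature IL-1 beta leaves the cell. Cleavage and release are not visible in RNA.

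Windows at the start of Il1rn, Nlrp3 and Il1b are shown because the first and second of these genes rose together after PD-1 Ab and the last did not. Each is 300 bases of RefSeq (GRCm38.p6), from 250 before to 50 after an annotated start, written on the strand of the gene. Capitals mark matches to the NF-kB motif GGGANNNNCC on either strand.
Il1rn, upstream start (chr2:24336610-24336909, plus strand): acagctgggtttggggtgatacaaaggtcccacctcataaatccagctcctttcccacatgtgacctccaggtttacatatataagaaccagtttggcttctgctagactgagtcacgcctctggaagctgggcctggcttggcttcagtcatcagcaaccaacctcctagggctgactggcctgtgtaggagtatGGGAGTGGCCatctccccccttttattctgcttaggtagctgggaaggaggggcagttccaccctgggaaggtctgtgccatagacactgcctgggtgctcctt
Il1rn, downstream start (chr2:24345121-24345420, plus strand): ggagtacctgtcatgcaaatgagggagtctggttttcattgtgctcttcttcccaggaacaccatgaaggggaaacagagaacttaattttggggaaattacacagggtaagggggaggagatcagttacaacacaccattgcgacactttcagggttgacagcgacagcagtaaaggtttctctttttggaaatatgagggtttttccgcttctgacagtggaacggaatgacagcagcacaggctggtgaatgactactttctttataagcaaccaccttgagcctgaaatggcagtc
Nlrp3, upstream start (chr11:59541319-59541618, plus strand): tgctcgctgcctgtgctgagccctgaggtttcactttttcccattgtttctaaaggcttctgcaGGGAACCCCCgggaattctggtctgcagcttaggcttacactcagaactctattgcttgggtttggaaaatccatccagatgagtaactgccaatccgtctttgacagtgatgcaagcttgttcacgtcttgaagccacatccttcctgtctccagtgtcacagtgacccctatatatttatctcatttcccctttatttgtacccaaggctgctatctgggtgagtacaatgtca
Il1b (chr2:129371090-129371389, minus strand): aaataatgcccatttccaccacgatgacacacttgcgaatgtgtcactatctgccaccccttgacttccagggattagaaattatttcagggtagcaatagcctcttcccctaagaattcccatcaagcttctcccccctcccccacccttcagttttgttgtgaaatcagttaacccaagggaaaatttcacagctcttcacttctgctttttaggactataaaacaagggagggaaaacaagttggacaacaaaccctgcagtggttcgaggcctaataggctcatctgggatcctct
RefSeq held 14 such windows for 9 of the 10 genes. The NF-kB motif occurred in 3 of the 14, 1 each for Il1rn, Nlrp3 and Il6, and in 20.7% of the 32851 windows of all genes. Il6 was not higher after PD-1 Ab, and the part of the motif in any change was not tested. The windows of Il1b, of the downstream start of Nlrp3 (chr11:59542436-59542735) and of both downstream starts of Il1rn held no match to these letters. TTCNNNGAA, the STAT motif called GAS, was found for 1 of the 9 genes, Il1r2, and in 8.3% of all windows. GAAANNGAAA, the interferon response motif called ISRE, was found for 0 of the 9 and in 3.44% of all windows. The table gives 1 value per gene, so the starts of Il1rn and of Nlrp3 were not separated.

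Il1a and Il1b are neighbors on the minus strand of chromosome 2 (GRCm38 129299610 to 129309972 and 129364570 to 129371139), and Il1rn lies elsewhere on that chromosome (24336853 to 24351494). Genes on the opposite strand overlap Il1a, Il1b and Il1r2, and genes on the same strand overlap Il1r1 and Il1r2. How strand was used in the counting is not stated, so reads of those pairs cannot be told apart. Of the exon sequence of Il1rn, 0.126% also occurred in another gene, and 0% of that of the other 9 did.

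Levels were compared within the antibody samples and within the tamoxifen samples, not between them. Short noncoding RNAs held 30.2% to 66.5% of the summed FPKM in WT and PD-1cKO tumors and at most 0.0817% in the antibody tumors. The median share was 45.3% in WT and 54.0% in PD-1cKO tumors, with median scaling factors (median of ratios) of 0.940 and 0.818. The part of this share in differences between WT and PD-1cKO tumors was not tested. Within the antibody samples, isotype control replicate 1 of the 1-dose group stood apart, with 54.6% of its FPKM in mitochondrial genes against at most 4.44% in the other 1-dose tumors. Pdcd1 was at 9.61 FPKM ± 4.51 (SD, n = 10) in PD-1cKO tumors and at 3.30 ± 1.46 (SD, n = 10) in WT tumors, and a value over the whole gene does not show whether exons 2 and 3 were lost. Epithelial markers were nearly absent from the cultured carcinoma cells, where Epcam, Krt8, Krt18 and Cdh1 together reached 0.572 to 0.742 FPKM.

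In cultured MC-38 cells most of these genes were at or near 0, apart from the signaling receptor and the inflammasome effectors. Il1b and Nlrp3 were listed at 0 FPKM in all 3 cultures. Il1r1 was at 9.35, 8.85 and 8.81 FPKM, Casp1 at 10.3, 9.55 and 9.72 FPKM, and Gsdmd at 8.00, 7.63 and 7.82 FPKM. For these last 3 genes the line itself carried RNA. Il1a, Il1rn, Il1r2, Il33 and Il6 lay between 0 and 0.299 FPKM in every culture.

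Tumors held far more of this RNA than cultures did. In isotype control tumors after 2 doses, 8 of the 10 genes were higher than in culture at an adjusted p under 0.01 and at least 2-fold (limma on log2(FPKM + 0.1), Benjamini-Hochberg adjustment over 15199 genes), where 14.2% of all genes tested passed in that direction. Il1b was at 28.2 FPKM ± 6.88 (SD, n = 5) and Nlrp3 at 2.17 ± 0.400 (SD, n = 5), against cultures listed at 0, so no fold change is given. Casp1 was at 35.7 FPKM in tumors and 9.87 in culture (log2 fold change 1.83 ± 0.12, SE, adjusted p = 2.15e-06), and Gsdmd was at 31.9 and 7.81 FPKM (1.997 ± 0.14, SE). The genes that did not pass were Il1r1, with a log2 difference of 0.65 (adjusted p = 0.0438), and Il6, with 1.95 (adjusted p = 0.0101). Monocyte and macrophage markers summed to 2.60 to 3.22 FPKM in culture and to 637 to 997 FPKM in these tumors, with 9 of 9 called higher. T cell markers were called for 6 of 6, neutrophil and endothelial markers for 4 of 4 each, mast cell markers for 5 of 5, adipocyte markers for 4 of 4 and fibroblast markers for 6 of 7. The part of these cells in the result was not tested. In bulk tissue, fewer cells of a type and less RNA per cell cannot be told apart, here and in every comparison that follows.

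Other genes of the pathway were also higher in these tumors than in culture, and none of the lists held a called fall. Of 13 other inflammasome genes tested, 8 were called, with the adaptor Pycard at a mean of 11.4 FPKM in tumors and 0.0512 in culture. The DNA sensor Aim2 was at 3.93 against 0.0750 FPKM, Casp4, an inflammatory caspase, at 17.6 against 7.86, and Naip2, Naip5, Nlrc4 and Mefv at 0.792 to 3.85 against 0.0123 to 0.539. Nlrp1b was at 1.21 FPKM and listed at 0 in culture. The line thus held little RNA for the adaptor and for most of these sensors.

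Of 13 genes that NF-kB or IL-1 can induce, 11 were called, among them the collagenase gene Mmp13 at 35.7 FPKM in tumors and 0.178 in culture, the cytokine Tnf at 4.59 and 0.0342, and Nos2 at 10.9 and 0.0972. Saa3 was at 8.35 against 0.129 FPKM, Mmp3 at 52.7 against 8.61, Cxcl1 at 15.5 against 3.41 and Csf3 at 1.61 against 0.117. Lcn2 was at 2.38 against 0.303 FPKM, Tnfaip3 at 10.2 against 3.32, Nfkbiz at 18.2 against 5.24, and Cxcl2 at 1.06 with culture listed at 0. Of 12 genes of the IL-6 family, 5 were called, led in level by the feedback inhibitor Socs3 at 40.9 against 7.19 FPKM. The others were Osm (1.57 against 0.00530), Lif (6.22 against 2.21), Il11 (1.89 against 0.509) and Il11ra1 (11.1 against 4.03 FPKM). Of 11 genes of IL-1 receptor signaling, 2 were called, Irak2 (6.37 against 1.099 FPKM) and Irak3 (2.19 against 0.808). Both other ligand and binding protein genes tested were called, Il18 (3.69 against 1.22) and Il18bp (15.1 against 2.67), and 1 of 5 other receptors was, Il1rl2 (1.87 against 0.0529 FPKM).

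**Figure D1:**
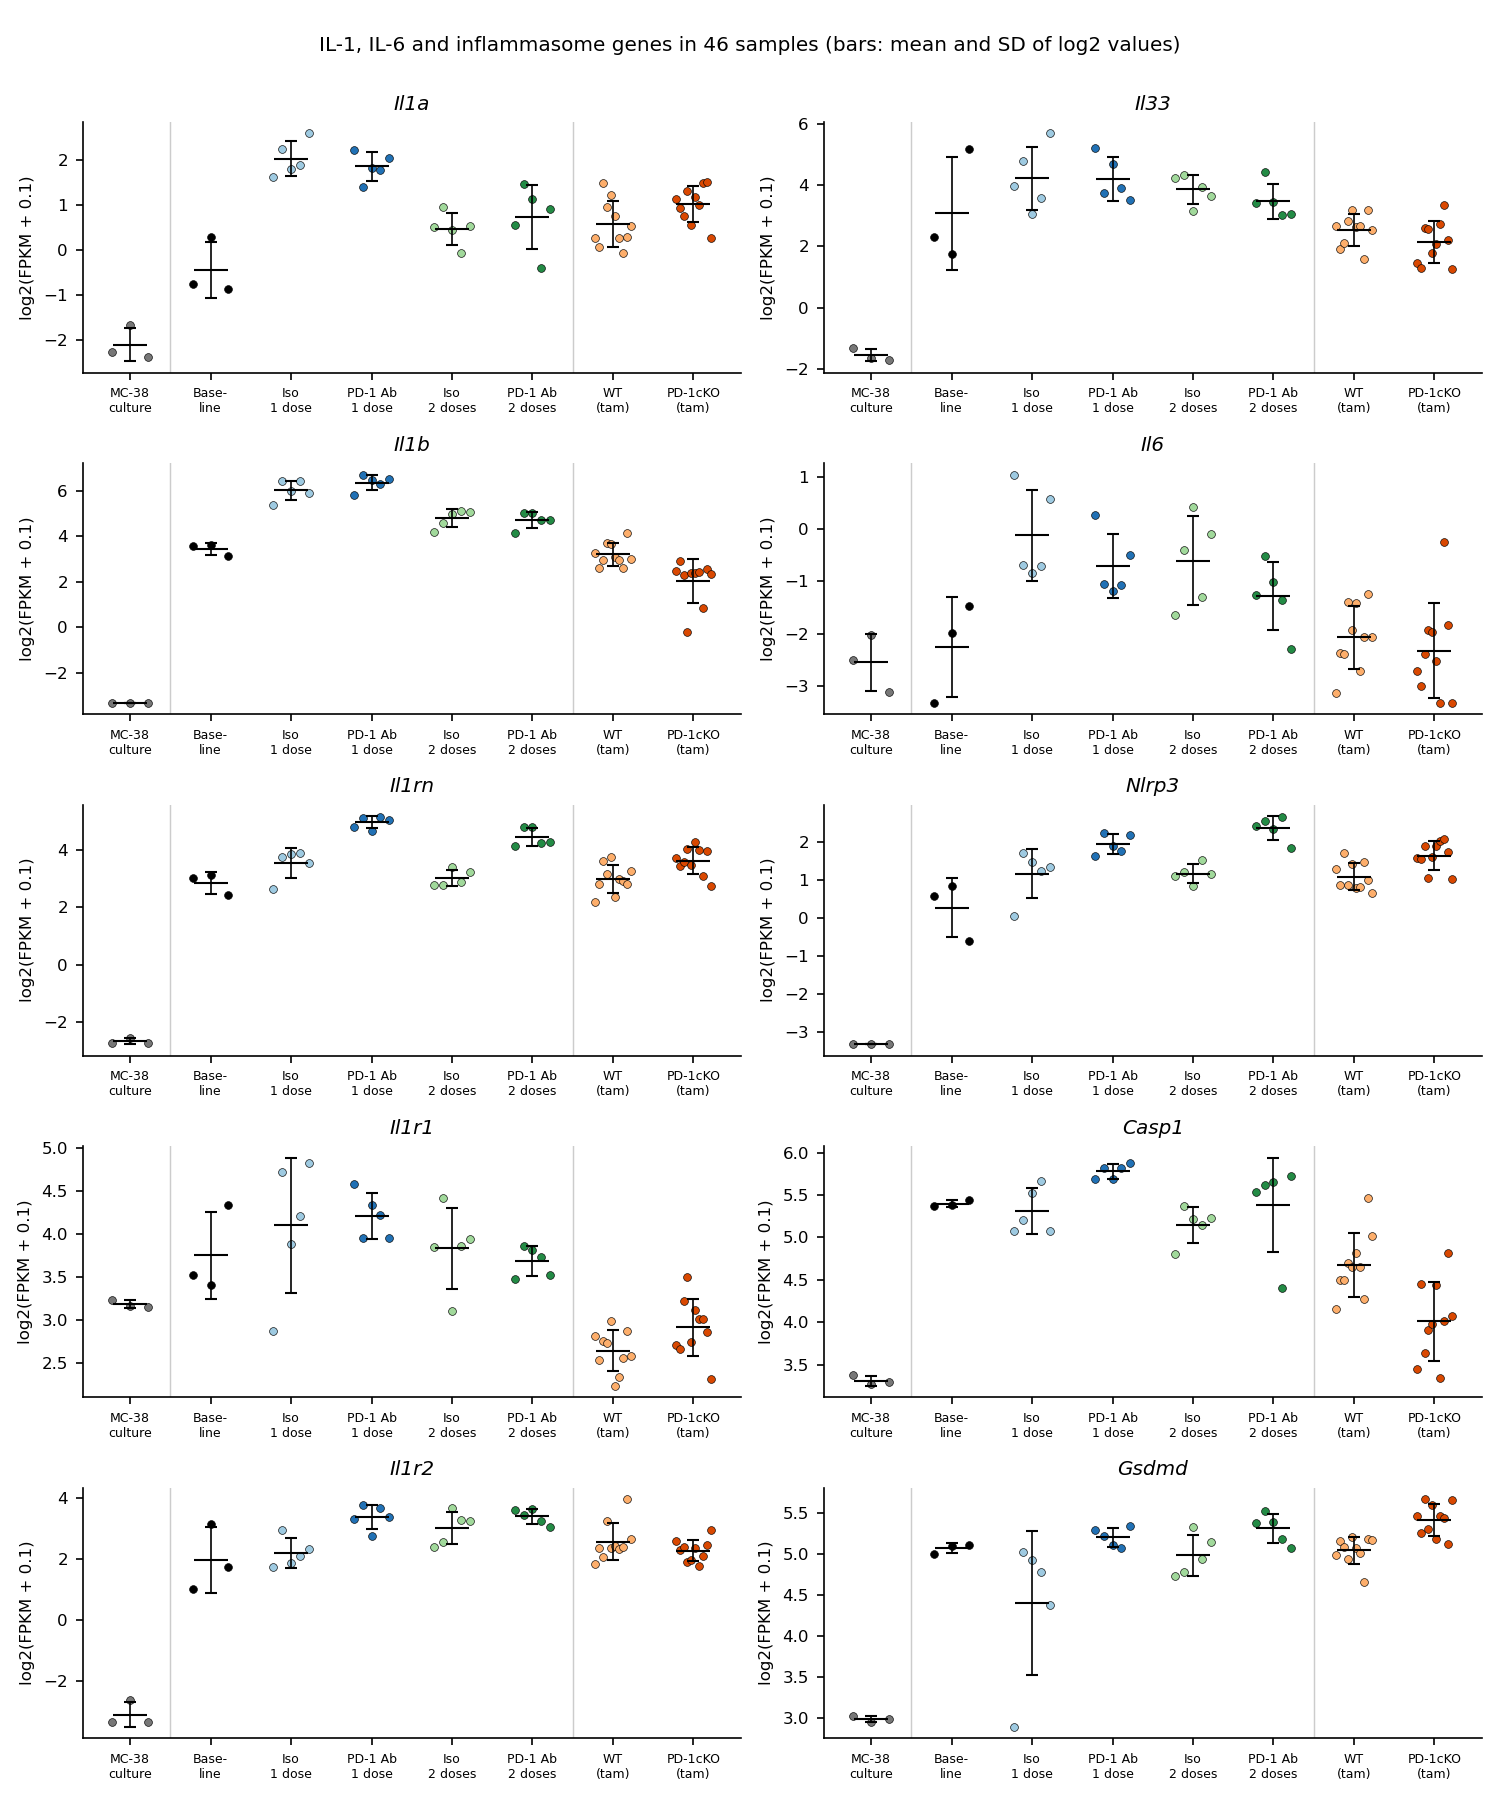
Each panel plots log2(FPKM + 0.1) of 1 gene in the 46 samples by group: MC-38 cultures, baseline, isotype control (Iso) and PD-1 Ab after 1 and 2 doses, and WT and PD-1cKO given tamoxifen (tam). Points are samples, bars are the mean and SD of the log2 values, and vertical lines part the cultures and the tamoxifen groups from the antibody tumors. Il1rn and Nlrp3 of the 5 tumors given 2 doses of PD-1 Ab lie above all 5 isotype controls, and Il1b of the same tumors does not.

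Of the IL-1 receptor agonists, Il1b was more abundant than Il1a in every tumor of the antibody groups. Il1a was the more abundant in the cultures and in PD-1cKO replicates 4 and 8. Among the controls of the antibody groups Il1b was highest after 1 dose. Il1b was at 11.7, 12.2 and 8.73 FPKM in baseline tumors. In isotype controls it was at 41.6, 85.0, 63.9, 84.6 and 59.5 FPKM after 1 dose and at 18.2, 24.0, 31.5, 34.2 and 33.2 FPKM after 2 doses. The 3 sets did not overlap, with baseline lowest and 1 dose highest. Their sample identifiers fall in separate ranges, which are not stated to be batches. Day, dose and identifier range therefore cannot be told apart in any comparison among these sets. Between the isotype controls of 2 doses and of 1 dose, 0 of 14445 genes passed (0%), with 996 at an unadjusted p under 0.05 (limma), and 0.132% of genes had all 2-dose controls below all 1-dose controls. Il1b differed there by -1.23 ± 0.26 on the log2 scale (SE, adjusted p = 0.372), and by -1.39 without replicate 1 of the 1-dose controls (adjusted p = 0.0518). The share of 0.132% is of unscaled FPKM, in which values of that replicate were generally low. Its median-of-ratios scaling factor was 0.428, against 1.15 to 1.20 in the other 1-dose controls. The share was not computed after scaling, where Il1a, Il1b and Il1rn were the members whose 2-dose controls all lay below all 1-dose controls.

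Baseline tumors also lay below the 2-dose controls in Il1b, without passing. The log2 difference was -1.34 ± 0.22 (SE, adjusted p = 0.0131, limma), and 0 of the 10 genes passed where 0.595% of all genes did, with 5 of the 10 at an unadjusted p under 0.05 against 17.7% of all genes. At an adjusted p under 0.05 with no fold limit there was 1, Il1b, against 3.05% of all genes. Il1b passed with 1 FPKM added in place of 0.1 (-1.27) and without isotype control replicate 1 of the 2-dose group (-1.49). Nlrp3 at baseline, 1.40, 1.68 and 0.557 FPKM, was likewise below every 2-dose control, and all baseline tumors were below all controls for 5.51% of genes. Casp1 at baseline, 41.4, 41.5 and 43.4 FPKM, was above every 2-dose control, a separation that 9.28% of genes showed.

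Il1a ran at a few FPKM, and its level was also lower in the 2-dose than in the 1-dose controls, without passing. It was at 2.98, 4.62, 3.39, 3.57 and 5.89 FPKM after 1 dose and at 1.31, 1.82, 1.27, 0.859 and 1.34 FPKM after 2 doses. These sets did not overlap. The log2 difference was -1.55 ± 0.29 (SE, adjusted p = 0.367, limma). The ratio of Il1b to Il1a, each with 0.1 FPKM added, had a median of 18.0 in the 1-dose controls and 23.1 in the 2-dose controls, with overlapping ranges of 9.96 to 23.1 and 12.5 to 35.8.

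After 2 doses of PD-1 Ab, the receptor antagonist and the inflammasome sensor were higher and the agonist Il1b was not. Of the 10 genes, 2 passed, Il1rn and Nlrp3, both higher, where 5.3% of the 15062 genes tested passed in either direction and 5.03% were higher. The median log2 fold change was 0.25 over the 10 genes and -0.04 over all genes tested. The same 2 were the members whose treated tumors all lay above all controls, as 9.23% of all genes did.

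Il1rn after 2 doses was at 17.8, 27.6, 27.7, 19.0 and 19.5 FPKM in PD-1 Ab-treated tumors and at 6.81, 6.86, 10.5, 7.30 and 9.37 FPKM in isotype controls. The lowest treated tumor lay well above the highest control. The rise was 2.70-fold (log2 fold change 1.43 ± 0.17, SE, 95% interval 1.06 to 1.81, adjusted p = 8.854e-04, limma). Il1rn passed under each of the 8 other settings tried and without any 1 of the 10 tumors (1.35 to 1.53).

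Nlrp3 was at 5.22, 5.72, 5.02, 6.27 and 3.50 FPKM in the treated tumors and at 2.04, 2.20, 1.69, 2.79 and 2.12 FPKM in the controls. Every treated tumor was above every control. The rise was 2.30-fold (1.20 ± 0.19, SE, 95% interval 0.80 to 1.61, adjusted p = 0.00172, limma). With 1 FPKM added in place of 0.1 it was 0.95 on the log2 scale, under the 2-fold limit.

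Il1b in the same tumors was at 17.5, 32, 31.9, 26.2 and 26.1 FPKM after PD-1 Ab, against 18.2 to 34.2 FPKM in the controls. The groups overlapped almost completely. Il1b differed by -0.07 on the log2 scale, with a 95% interval of -0.52 to 0.38 (adjusted p = 0.824, limma). The ratio of Il1rn to Il1b, each with 0.1 FPKM added, was 0.726 to 1.02 in treated tumors and 0.216 to 0.378 in controls.

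**Figure D2:**
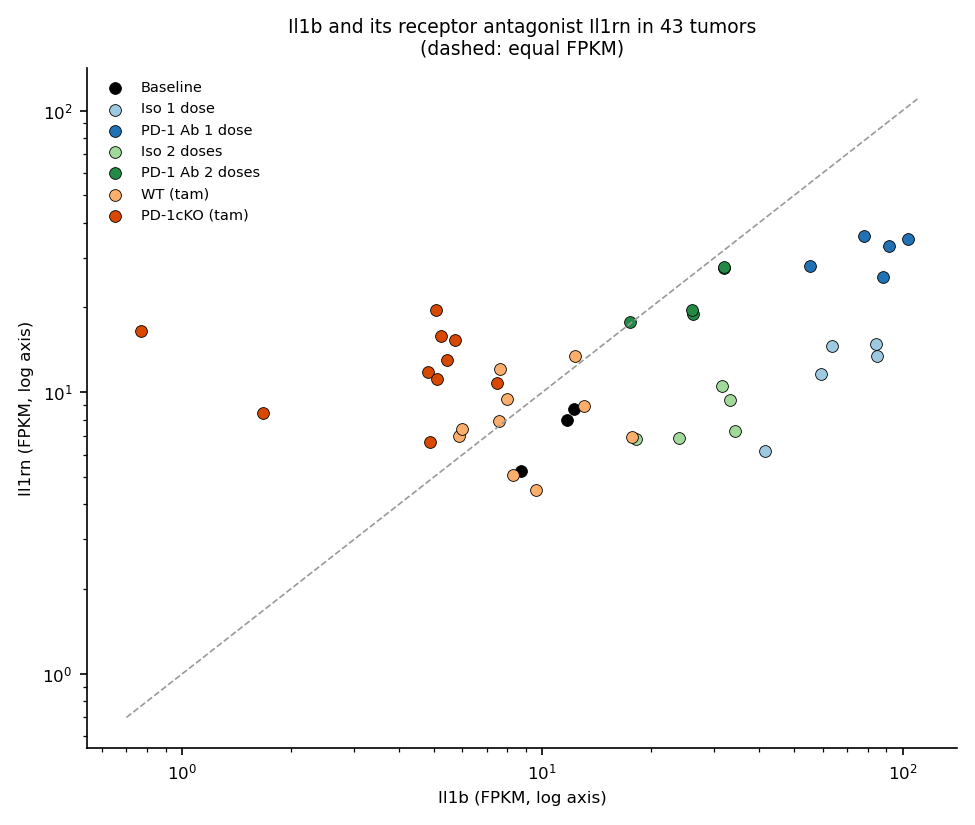
FPKM of Il1b (horizontal, log axis) is plotted against FPKM of Il1rn (vertical, log axis) for the 43 tumors, colored by group, with a dashed line at equal FPKM. Tumors given 2 doses of PD-1 Ab lie above the matching isotype controls at the same Il1b, with a median Il1rn to Il1b ratio of 0.863 against 0.289, and PD-1cKO tumors lie to the upper left of WT tumors, with 2.55 against 1.07.

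The receptors and the other cytokines did not pass after 2 doses. Il1r1 ranged from 11.0 to 14.5 FPKM in treated tumors and from 8.53 to 21.4 in controls (log2 fold change -0.15, 95% interval -0.59 to 0.28). The decoy Il1r2 ranged from 8.21 to 12.4 FPKM and from 5.19 to 12.5 (0.37, interval -0.13 to 0.87). In both genes the treated range lay inside the control range. Il33, an alarmin of barrier and stromal cells, differed by -0.38 (interval -1.003 to 0.24) and Il1a by 0.26 (-0.46 to 0.98). Il6 lay between 0.104 and 1.23 FPKM in these 10 tumors, and its interval of -1.69 to 0.32 was the widest of the 10 genes.

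The inflammasome effectors differed less than the sensor. Casp1 was at 46.3, 48.9, 50.1, 21.03 and 52.9 FPKM in treated tumors and at 27.8, 41.1, 37.2, 35.2 and 37.3 FPKM in controls. Of the treated tumors 4 lay above every control, and replicate 4 lay below every control. The log2 fold change was 0.24 ± 0.23 (SE, adjusted p = 0.468, limma), and without that replicate it was 0.48 (adjusted p = 0.0158), still under 2-fold. Gsdmd was at 33.6 to 45.9 FPKM against 26.5 to 40.0 FPKM (0.33 ± 0.13, SE, adjusted p = 0.0876).

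Markers of several cell types moved in the same comparison. Monocyte and macrophage markers summed to 1177 to 2457 FPKM after 2 doses of PD-1 Ab and to 637 to 997 FPKM in controls, with 7 of 9 called higher and a median log2 fold change of 1.38. For Il1rn and Nlrp3 it was 1.43 and 1.20. T cell markers were called higher for 6 of 6, with sums of 35.2 to 146 FPKM against 7.67 to 17.8, and mast cell markers for 6 of 6, with 11.2 to 54.9 against 3.73 to 8.22. Among neutrophil markers Csf3r was called higher and S100a8 lower, of 5 tested, and the sums overlapped at 9.58 to 32.1 FPKM against 6.79 to 17.1. Ly6g, a defining neutrophil marker, averaged 0.0198 FPKM in treated tumors and was listed at 0 in all controls. The part of these cells in the rise of Il1rn and Nlrp3 was not tested.

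**Figure D3:**
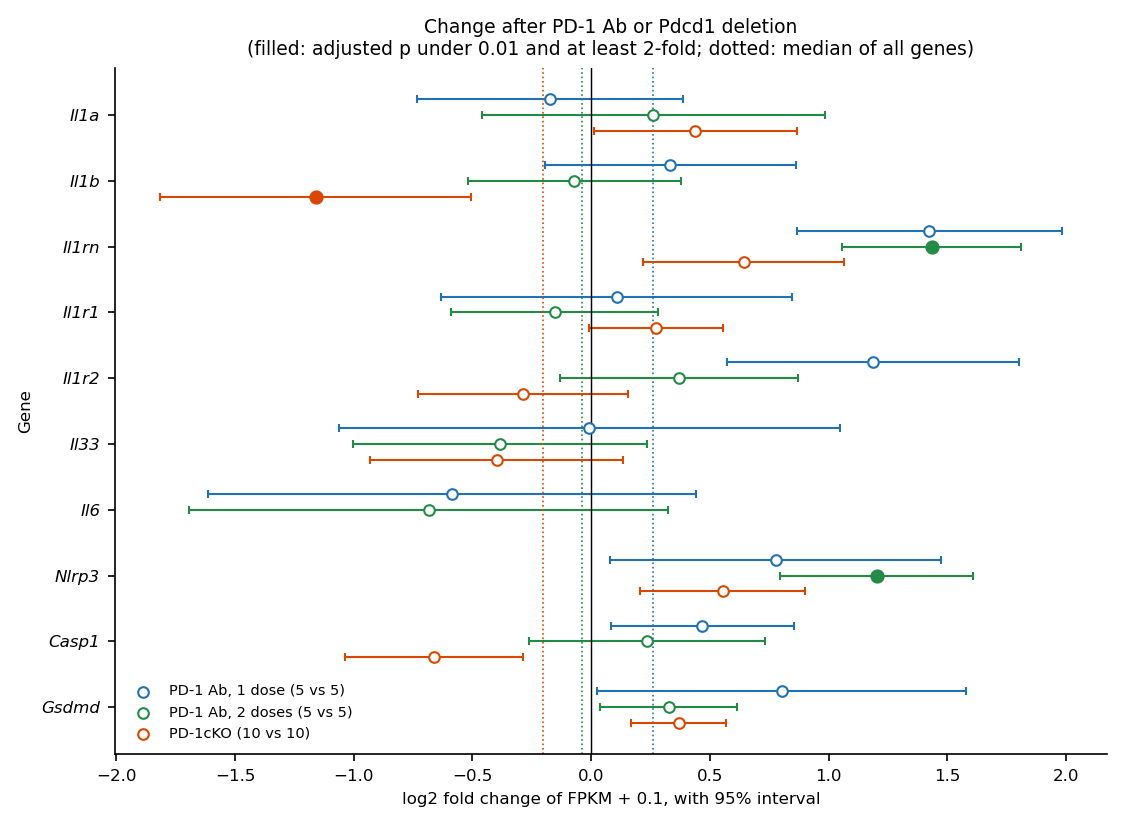
Points give the log2 fold change of FPKM + 0.1 with its 95% interval for the 10 genes in 3 comparisons: 1 dose of PD-1 Ab (blue) and 2 doses (green), 5 tumors against 5 each, and PD-1cKO (orange), 10 against 10. Filled points passed an adjusted p of 0.01 and 2-fold, and dotted lines mark the median of all genes tested. Il1rn lies at 1.42, 1.43 and 0.64, and Il1b at 0.33, -0.07 and -1.16. Il6 was not tested in PD-1cKO tumors.

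After 1 dose the difference in Il1rn was as large in unscaled FPKM, but it did not pass. Il1rn was at 28.1, 35.0, 25.6, 36.0 and 33.1 FPKM in PD-1 Ab-treated tumors and at 6.17, 13.4, 14.6, 14.8 and 11.6 FPKM in isotype controls. The groups were far apart, and the lowest control was the library rich in mitochondrial RNA. Its log2 fold change was 1.42 ± 0.26 (SE, adjusted p = 0.135), in a comparison where 0 of 14556 genes passed (0%) and 895 had an unadjusted p under 0.05 (limma). Without that control Il1rn passed (1.20 ± 0.12, SE, adjusted p = 0.00243). It also passed when all groups shared 1 fit (adjusted p = 0.00609). With median-of-ratios scaling, which moved the median of all genes from 0.26 to 0.01, it was 1.17 ± 0.13 (SE, adjusted p = 0.0103). The value after 2 doses with that scaling was 1.44.

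The sample identifiers in the labels fall into runs, which are not stated to be batches. Isotype control replicates 4 and 5 of the 1-dose group shared a run with all 5 PD-1 Ab-treated tumors. Within that run Il1rn was at 14.8 and 11.6 FPKM in controls and at 25.6 to 36.0 FPKM after PD-1 Ab. With the run as a covariate the log2 fold change was 1.24 ± 0.34 (SE, adjusted p = 1). All tumors of the 2-dose comparison belonged to 1 run. That run held no tumor of the 1-dose groups, so dose and run cannot be told apart.

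The decoy receptor Il1r2 after 1 dose was at 9.89, 13.6, 6.68, 12.7 and 10.2 FPKM with PD-1 Ab and at 3.25, 7.68, 3.52, 4.16 and 4.87 FPKM with isotype. All but 1 of the treated tumors lay above every control. On the log2 scale this was a difference of 1.19 ± 0.28 (SE, adjusted p = 0.268, limma). The corresponding value after 2 doses was 0.37, and the difference between the doses was -0.82 ± 0.37 (SE, adjusted p = 0.623). For Il1rn the difference between the doses was 0.01 ± 0.32 (SE), or 0.29 with median-of-ratios scaling. In this test of the difference 0 of 15289 genes passed (0%), with 1182 at an unadjusted p under 0.05 (limma).

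Of the inflammasome genes after 1 dose, Casp1 and Gsdmd did not overlap between groups, as 3.59% of all genes did with the treated group above. Gsdmd was at 38.9, 36.9, 34.2, 33.4 and 40.3 FPKM with PD-1 Ab and at 7.29, 32.4, 30.2, 27.4 and 20.7 FPKM with isotype. The control at 7.29 FPKM was again replicate 1, and the groups stayed apart after median-of-ratios scaling. The log2 fold change of Gsdmd was 0.80 ± 0.36 (SE, adjusted p = 0.795) and that of Casp1 0.47 ± 0.18 (SE, adjusted p = 0.675), and Casp1 overlapped after that scaling. Nlrp3 was at 2.98 to 4.61 FPKM against 0.931 to 3.19 FPKM (0.78 ± 0.32, SE, adjusted p = 0.731). The monocyte and macrophage sum was 873 to 1251 FPKM with PD-1 Ab and 179 to 873 FPKM with isotype. The control at 179 FPKM was the library rich in mitochondrial RNA, and the other 4 were at 528 to 873 FPKM. T cell markers summed to 15.3 to 53.3 FPKM with PD-1 Ab and to 3.92 to 21.7 FPKM with isotype. The part of these cells in the differences was not tested.

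The agonists did not pass after 1 dose. Il1b was at 55.3, 103, 88.2, 78.3 and 91.7 FPKM with PD-1 Ab, overlapping the controls at 41.6 to 85.0 FPKM. On the log2 scale Il1b differed by 0.33 (95% interval -0.20 to 0.86), or 0.08 with median-of-ratios scaling. Il1a was -0.17 (interval -0.73 to 0.38), Il1r1 0.11, Il33 -0.01 and Il6 -0.59, each with an adjusted p over that of Il1rn. The direction of Il1r1 turned with scaling, to -0.15. The ratio of Il1rn to Il1b was 0.291 to 0.508 in treated tumors and 0.150 to 0.230 in controls.

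In PD-1cKO tumors, the agonist Il1b was lower, in a call that was lost under 6 of 9 other settings. Of the 9 genes tested, 1 passed, Il1b, where 8.07% of 15075 genes passed in either direction and 3.87% were lower. Il6 was not tested because its mean was under 0.5 FPKM in both groups. The median log2 fold change was 0.27 over the 9 genes and -0.20 over all genes tested.

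Il1b had a lowest, median and highest value of 0.770, 5.09 and 7.51 FPKM in PD-1cKO tumors and of 5.88, 8.14 and 17.7 FPKM in WT tumors. Of the PD-1cKO tumors 9 of 10 lay below every WT tumor, the exception being replicate 2 at 7.51 FPKM, and 2.15% of all genes had at least 9 of 10 there. Il1b was 2.24-fold lower (log2 fold change -1.16 ± 0.32, SE, 95% interval -1.82 to -0.50, adjusted p = 0.00753, limma). With median-of-ratios scaling, which moved the median of all genes from -0.20 to -0.03, it was -0.99 (adjusted p = 0.0134) and did not pass, and 7 of 10 tumors then lay below every WT tumor.

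The call of Il1b depended on single libraries. It was lost without PD-1cKO replicate 4, 5, 7 or 8, or WT replicate 1, 3, 4, 5, 6, 7, 9 or 10, which is 12 of the 20 tumors, while the log2 fold change stayed between -1.26 and -0.91. The smallest value came without PD-1cKO replicate 4, the tumor at 0.770 FPKM. PD-1cKO replicates 4 and 8 had the least Il1b and also the highest shares of short noncoding RNA, 64.0% and 66.5%. After median-of-ratios scaling the lowest PD-1cKO value of Il1b was 1.15, and WT tumors ranged from 6.25 to 19.9. Identifier runs and groups were nearly the same split here, with 7 PD-1cKO and 0 WT tumors in the first run, 1 and 9 in the second, and 2 and 1 in the third. Within the second run the PD-1cKO tumor had 1.68 FPKM of Il1b and the 9 WT tumors 5.88 to 17.7. Within the third run the PD-1cKO tumors had 5.71 and 4.88 FPKM and the WT tumor 7.99. With the run as a covariate the value was -1.62 ± 0.57 (SE, adjusted p = 0.0444).

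The antagonist and the sensor were on the higher side in PD-1cKO tumors, without passing. Il1rn had a lowest, median and highest value of 6.67, 12.4 and 19.5 FPKM in PD-1cKO and of 4.49, 7.68 and 13.5 FPKM in WT tumors. The ranges overlapped widely. For Il1rn this gave a log2 fold change of 0.64 ± 0.20 (SE, adjusted p = 0.0163), 0.82 with median-of-ratios scaling (adjusted p = 0.00272), and 0.11 with the run as a covariate (adjusted p = 0.822, limma). Nlrp3 was at 1.94, 3.10 and 4.14 FPKM against 1.47, 1.83 and 3.17 FPKM, again overlapping. Its log2 fold change was 0.55 ± 0.17 (SE, adjusted p = 0.0132), and 0.86 with the run as a covariate (adjusted p = 0.0376, limma).

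The inflammasome effectors Casp1 and Gsdmd differed in opposite directions in PD-1cKO tumors, both under 2-fold. Casp1 had a lowest, median and highest value of 10.1, 15.9 and 28.1 FPKM in PD-1cKO and of 17.8, 25.0 and 44.2 FPKM in WT tumors. Of the PD-1cKO tumors 7 of 10 lay below every WT tumor, and 16.8% of all genes had at least 7 there. For Casp1 the log2 fold change was -0.66 ± 0.18 (SE, adjusted p = 0.00777), or -0.48 with median-of-ratios scaling (adjusted p = 0.0290, limma). Gsdmd was at 34.6, 43.4 and 50.7 FPKM against 25.1, 33.6 and 36.7 FPKM, with an overlap between 34.6 and 36.7 FPKM. For Gsdmd it was 0.37 ± 0.10 (SE, adjusted p = 0.00596). Without the 2-fold limit, 3 of the 9 genes had an adjusted p under 0.01, namely Il1b, Casp1 and Gsdmd, where 21.3% of all genes did, and 5 had one under 0.05, where 43.6% did. With the run as a covariate Casp1 was at -0.60 (adjusted p = 0.141) and Gsdmd at 0.33 (adjusted p = 0.167, limma), so that neither kept an adjusted p under 0.05.

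The remaining members did not pass in PD-1cKO tumors. Il1a was at 1.10 to 2.75 FPKM against 0.862 to 2.68 (log2 fold change 0.44, 95% interval 0.01 to 0.87, adjusted p = 0.0877, limma). Il1r1 was 0.27 (interval -0.01 to 0.55), Il1r2 -0.29 (-0.73 to 0.16) and Il33 -0.40 (-0.93 to 0.13). Il6 was at 0 to 0.740 FPKM in PD-1cKO and 0.0143 to 0.322 FPKM in WT tumors. The ratio of Il1rn to Il1b, each with 0.1 FPKM added, was 1.36 to 19 in PD-1cKO and 0.394 to 1.58 in WT tumors. The value of 19 was replicate 4, the tumor with the least Il1b, and without it the highest was 4.79.

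Cell type markers also differed between PD-1cKO and WT tumors. Monocyte and macrophage markers summed to 1051 to 3522 FPKM against 734 to 1283 FPKM, with 3 of 9 called higher, and T cell markers to 23.5 to 94.4 against 9.43 to 37.4, with 6 of 6 called higher. Fibroblast markers summed to 2257 to 12477 against 1092 to 2302 FPKM, with 4 of 7 called higher. Neutrophil markers summed to 7.24 to 323 against 4.80 to 15.9 FPKM, with 2 of the 5 tested called higher, S100a8 and Csf3r. Their part in the level of Il1b, Casp1 and Gsdmd was not tested.

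The effect of 2 doses of PD-1 Ab was set against that of PD-1cKO in a test of the difference of effects (limma). None of the 10 genes passed, where 0.0914% of 16404 genes did, and 4 had an unadjusted p under 0.05, where 15.8% of all genes did. The difference for Il1b was 1.09 ± 0.49 on the log2 scale (SE, unadjusted p = 0.0342, adjusted p = 0.281) and that for Casp1 0.90 ± 0.31 (SE, adjusted p = 0.184, limma). For Il1rn it was 0.79 ± 0.32 (SE) and for Nlrp3 0.65 ± 0.27 (SE), with adjusted p of 0.242 and 0.253. The median difference over all genes tested was 0.23. With median-of-ratios scaling, which moved that median to 0.03, Il1b was at 0.88, Casp1 at 0.68, Il1rn at 0.57 and Nlrp3 at 0.43. Tamoxifen, day and RNA composition also differed between the antibody and the tamoxifen samples, so they cannot be told apart from the kind of PD-1 loss.

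Other genes of the pathway put the members in context. For comparison, 5.3% of all genes tested were called after 2 doses of PD-1 Ab and 8.07% in PD-1cKO tumors. After 2 doses of PD-1 Ab, 4 of 14 other inflammasome genes tested were called higher and 0 lower, with a median log2 fold change of 0.87, against -0.04 over all genes. They were Nlrp1b (5.86 against 1.21 FPKM, 2.26 ± 0.39, SE), Mefv, which encodes pyrin (3.02 against 0.976 FPKM, 1.52), Nlrc4 (2.31 against 0.792 FPKM, 1.41) and Naip2, a secretion-system sensor of the NLRC4 inflammasome (9.37 against 3.85 FPKM, 1.28). Of the exon sequence of Naip2, 19.1% occurs in other genes, so its reads may have been split with its paralogs. Leaving out 1 tumor at a time lost the call of Nlrc4 in 9 of 10 cases, of Mefv in 5, of Naip2 in 3 (PD-1 Ab replicates 1, 2 and 3) and of Nlrp1b in 2 (PD-1 Ab replicates 2 and 3). The adaptor Pycard was at 0.81 (adjusted p = 0.0218). In PD-1cKO tumors 1 of 15 was called, Ninj1, which mediates membrane rupture (47.9 against 19.7 FPKM, 1.122 ± 0.25, SE, adjusted p = 0.00290, limma), with a median of 0.25 over the 15. Without PD-1cKO replicate 8 Ninj1 was at 0.99, under 2-fold.

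Il18bp, the soluble antagonist of the IL-1 family cytokine IL-18, was called higher in both comparisons, as was Il18r1. Il18bp ranged from 52.5 to 135 FPKM after 2 doses of PD-1 Ab and from 9.19 to 22.6 FPKM in controls (2.82 ± 0.28, SE, adjusted p = 8.064e-04, limma). In PD-1cKO tumors it ranged from 25.8 to 67.1 FPKM against 9.56 to 30.1 FPKM (1.48 ± 0.20, SE, adjusted p = 4.144e-04). The ligand Il18 was at 0.20 and -0.16. The receptor Il18r1 was at 2.005 after PD-1 Ab and at 1.504 in PD-1cKO tumors, where the call was lost without 1 tumor in 13 of 20 cases. These were 1 of 2 other ligands and binding proteins and 1 of 6 other receptors tested in each comparison. Il1rl1, the IL-33 receptor, was at 0.84 after PD-1 Ab (adjusted p = 0.00441), under 2-fold.

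In the lists of IL-1 receptor signaling and of the IL-6 family, 0 or 1 gene passed in each comparison. Of all genes tested, 5.3% passed after 2 doses of PD-1 Ab and 8.07% in PD-1cKO tumors. Of 11 genes of IL-1 receptor signaling, 0 were called in either comparison, and Irak2 was closest at 0.99 and 0.79 (adjusted p = 0.00101 and 0.00122, limma). Without the 2-fold limit, 2 and 5 of the 11 had an adjusted p under 0.05, where 24.5% and 43.6% of all genes did. Of 12 genes of the IL-6 family and its signaling, 1 was called in each, Il6ra after PD-1 Ab (10.7 against 4.99 FPKM, 1.15) and Il11ra1 in PD-1cKO tumors (37.2 against 12.5 FPKM, 1.34). The call of Il6ra was lost without 1 tumor in 8 of 10 cases, and 46.3% of the exon sequence of Il11ra1 occurs in other genes.

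Genes that NF-kB or IL-1 can induce did not move as 1 group. After 2 doses, of 13 tested, 1 was called higher, Nos2, and 2 lower, the neutrophil chemokine Cxcl1 and the granulocyte growth factor Csf3, with a median of -0.21. Cxcl1 ranged from 3.29 to 4.73 FPKM in treated tumors and from 7.49 to 22.8 FPKM in controls (-1.81 ± 0.24, SE), and Csf3 from 0.142 to 0.527 and from 1.10 to 2.60 (-2.16 ± 0.33, SE). Of all genes tested, 0.272% were called lower. With 1 FPKM added Csf3 was at -0.999, just under 2-fold. Nos2, the inducible nitric oxide synthase, ranged from 23.0 to 42.2 FPKM against 6.58 to 16.3 FPKM (1.51 ± 0.22, SE). In PD-1cKO tumors Cxcl1 was again lower (1.59 against 3.52 FPKM, -1.18 ± 0.27, SE) and Nos2 higher (40.0 against 17.6 FPKM, 1.20 ± 0.23, SE). With the run as a covariate, Nos2 was at 0.49 (adjusted p = 0.331, limma). Il18bp was then at 1.68, Il18r1 at 2.50, Il11ra1 at 1.73, Ninj1 at 1.61 and Cxcl1 at -1.47, each farther from 0 than without the covariate. Their adjusted p lay between 0.0257 and 0.0356 (limma), so that none of these PD-1cKO calls remained.

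**Figure D4:**
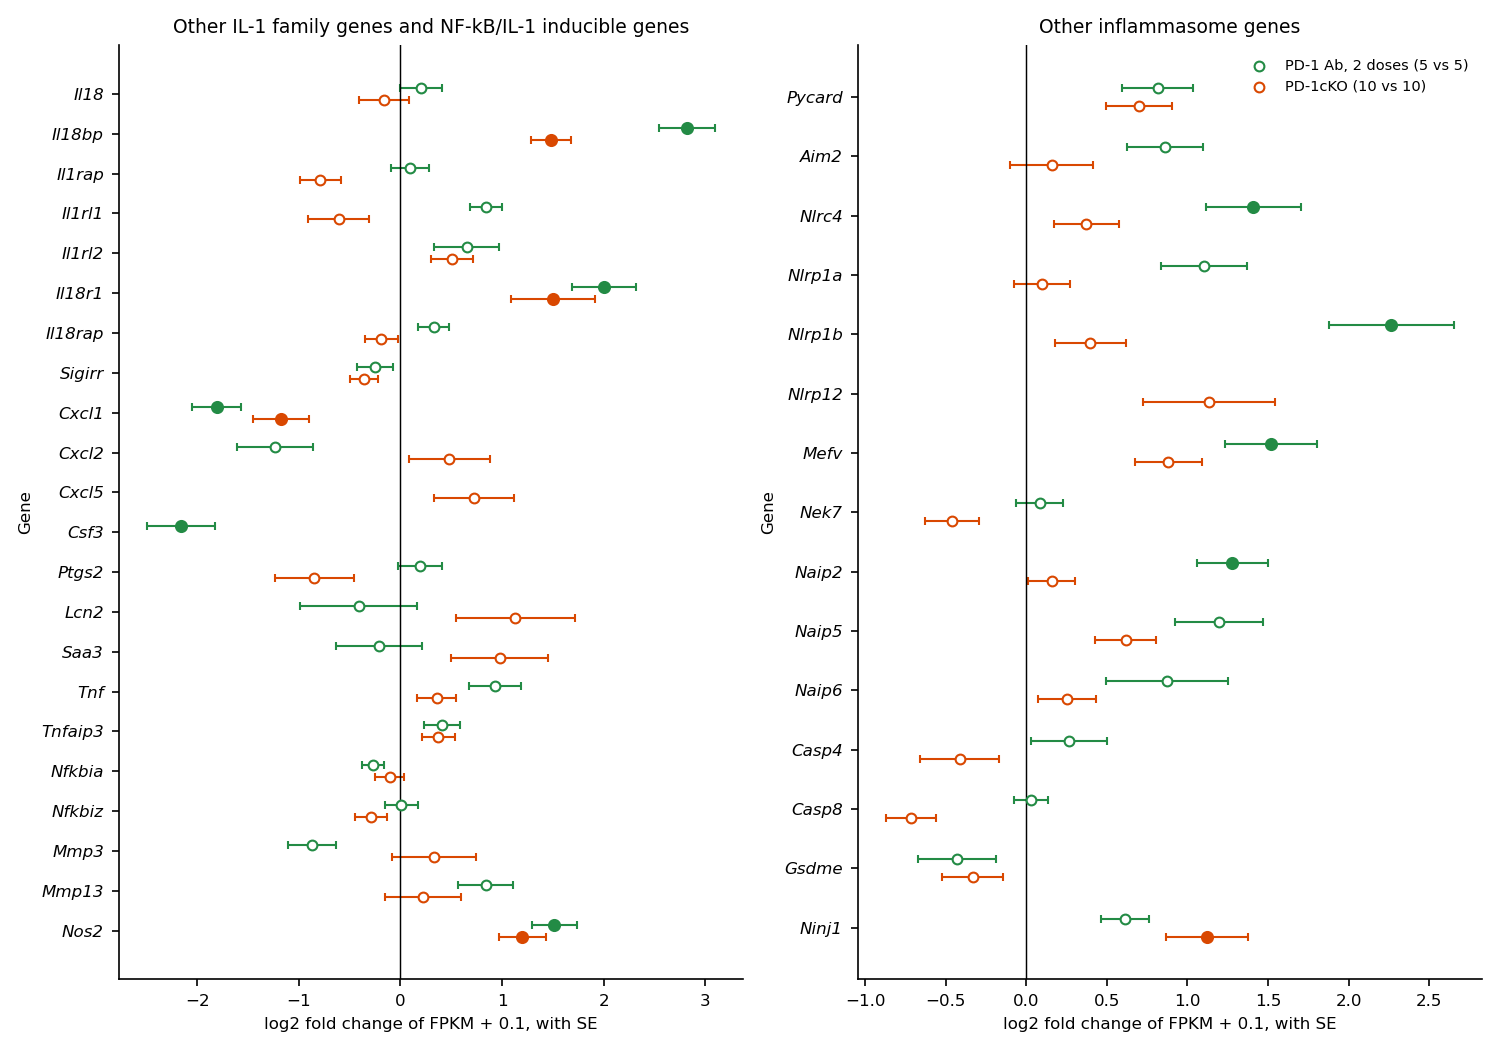
The log2 fold change of FPKM + 0.1 with its SE is plotted for other IL-1 family genes and NF-kB or IL-1 inducible genes (left) and other inflammasome genes (right), after 2 doses of PD-1 Ab (green, 5 tumors against 5) and in PD-1cKO tumors (orange, 10 against 10). Filled points passed an adjusted p of 0.01 and 2-fold, and a gene without a point in a comparison was not tested there. Il18bp lies at 2.82 and 1.48 and Cxcl1 at -1.81 and -1.18.

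The members varied among tumors of a group in different company. Over the 43 tumors, after median-of-ratios scaling and subtraction of each group's mean, the gene most like Il1b among 12109 protein-coding genes was Lap3 (Pearson r = 0.782), that most like Il1rn was Srgn (0.715) and that most like Nlrp3 was Itgal (0.768). For Il1r1 it was Xylt1 (0.892), for Il33 Gem (0.826), for Casp1 Smim15 (0.863) and for Gsdmd Fkbp8 (0.873). Il1a, Il1r2 and Il6 had lower maxima, with Ctla2a at 0.708, Ssu72 at 0.586 and Uqcrh at 0.753, the last falling to 0.666 without isotype control replicate 1 of the 1-dose group. Among the members themselves the highest value was 0.763, between Il1r1 and Il33, and Il1a and Il1b had -0.10. Genes of 1 library share its depth and scaling, so these values are descriptions.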

How the data were processed

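RNA of 46 samples was sequenced by the study as 50-base paired-end reads of ribosome-depleted, stranded total RNA. The authors aligned reads with the Omicsoft aligner to the GRCm38 mouse genome with Ensembl annotation and deposited 1 table of FPKM per gene. Counts are not used here, so the depth is unknown and the authors' count model was not rerun. Samples were grouped by their labels. Of the gene identifiers, 99.3% matched the GRCm38 annotation used for symbols. From FPKM, log2(FPKM + 0.1) was tested with limma 3.58.1 (R 4.3.3, empirical Bayes with a trend) on genes averaging 0.5 FPKM or more in 1 of the groups compared, with Benjamini-Hochberg adjustment over all genes tested. A call needed an adjusted p under 0.01 and 2-fold, and fold changes on this scale understate those of low genes. The code was tested on simulated data. Alternatives were the added constant, the filter, scaling by upper quartile or median of ratios, all groups in 1 fit, no trend, a replicate block, the identifier run as a covariate and leaving out each tumor. All 10 members, every called gene of 6 pathway lists and up to 4 others of each are named for the comparisons with culture, after 2 doses and in PD-1cKO, the others holding no call, with the 3 genes most like each member computed and the first named. The members and lists were chosen with earlier results of these data known. Sequences came from RefSeq, and figures were drawn with matplotlib 3.10.9.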

Additional observations from a re-analysis of the deposited data

Results flagged for a closer look

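In 60 sets of 5 or 10 tumors, each 1 gene in 1 group, 5 values lay far from the rest of their set, and chance alone flags about 1 set in 20. Isotype control replicate 1 of the 1-dose group was lowest for Il1rn, at 6.17 FPKM, and for Nlrp3, at 0.931 FPKM, and it is the library with 54.6% of its FPKM in mitochondrial genes. PD-1 Ab-treated replicate 4 of the 2-dose group was lowest for Casp1, at 21.03 FPKM. PD-1cKO replicate 8 was highest for Il6, at 0.740 FPKM, and its neutrophil markers summed to 88.3 FPKM. PD-1cKO replicates 7 and 4 had higher neutrophil sums, 323 and 116 FPKM, with Il6 at 0 and 0.162 FPKM. WT replicate 8 was lowest for Gsdmd, at 25.1 FPKM. No cause was tested for any of these values.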

How the results depend on the processing

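Of 1369 values of the members under other settings, 1305 kept their direction and their side of the threshold, 19 lost and 10 gained a call, and 35 turned direction. The cause was not tested. With 1 FPKM added, 1 member was called after 2 doses, 0 in PD-1cKO and 1 at baseline. With all groups in 1 fit, 1 was called after 1 dose (Il1rn) and 1 between the isotype controls (Il1a). In PD-1cKO tumors, 0 were called with no filter, median-of-ratios scaling, upper-quartile scaling or the run covariate, 3 at an adjusted p under 0.01 with no fold limit and 5 under 0.05 (43.6% of all genes), which gave 1 at baseline (3.05%). The replicate block took the PD-1cKO count from 1 to 0 (Il1b, adjusted p = 0.0141) and changed no other count. Deviations of same-numbered tumors correlated at -0.21 to 0.16. Differently numbered tumors were not set beside them, so these values do not settle whether replicate numbers pair the tumors. Leaving out 1 sample gave counts of 0 to 1 after 1 dose, in PD-1cKO and at baseline.

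Directions turned for Il1r1 after 1 dose with median-of-ratios scaling (-0.15), upper-quartile scaling (-0.13) and the run covariate (-0.31), for Il33 in PD-1cKO with the run covariate (0.14), and for the Il1rn difference between doses with 1 FPKM added (-0.012). Leaving out 1 sample gave ranges across 0 for Il1b after 2 doses (-0.22 to 0.074), for Il1r1 (-0.20 to 0.29) and Il33 (-0.30 to 0.36) after 1 dose, for Il1rn (-0.31 to 0.053) and Il1r1 (-0.37 to 0.095) at baseline, for Il33 (-0.65 to 0.0048) and Nlrp3 (-0.28 to 0.14) between isotype controls, and for the Il1rn dose difference (-0.078 to 0.24). None of these was a call. The FPKM give no depth, so no counting error could be given, least of all for Il6.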
